A study of Rattus norvegicus with 7 samples.

Results

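The BCL2 family and the inhibitor of apoptosis (IAP) genes were followed in cultured spinal cord cells of E15 Sprague-Dawley rats during 72 hours of cyclic tensile stress. The 10 genes Bcl2, Bcl2l1, Mcl1, Bax, Bak1, Bid, Bcl2l11, Birc2, Birc3 and Xiap were chosen by name, and every probe set of the rat expression array (Affymetrix Rat Genome 230 2.0) that the platform annotation gives to exactly 1 of them was included. This gave 16 of 31042 probe sets, for 9 of the 10 genes. The probe set of Bax carries a further symbol as well, so Bax has no value here. Embryonic cords, freed of meninges and dorsal root ganglia, were dissociated and plated on collagen-coated flexible membranes, and 3 days later the mixed cells were stretched by 10% at 0.5 Hz. RNA was taken at 0 hours, before loading, and at 6 later times from 2 to 72 hours of stress, with RNA of 5 animals combined for the 1 array of each time. All groups share strain, age and tissue and differ in the hours under stress. Cultures left unstretched until a later time were not analysed here, and the effects of stress and of age in culture cannot be told apart.

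Apoptosis through the mitochondria is decided by the balance of BCL2 family proteins. The effectors Bax and Bak form pores in the outer mitochondrial membrane, the prosurvival proteins Bcl-2, Bcl-xL (gene Bcl2l1) and Mcl-1 hold them back, and BH3-only proteins such as Bid and Bim (gene Bcl2l11) activate them or neutralise the prosurvival proteins. The IAP proteins act further downstream. Xiap inhibits caspases directly, and the ubiquitin ligases cIAP1 and cIAP2, encoded by Birc2 and Birc3, act mainly at the TNF receptor complex, where they keep signalling directed towards NF-kB and survival. Developing neurons depend on Bcl-xL and Mcl-1 for survival.

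A signal intensity per probe set was compared between arrays in 3 ways. A straight line over the hours was fitted with limma, and its slope is given as the log2 change over 72 hours on the scale of log2(signal + 32), which understates changes of low signals. A change along the order of the times was tested with limma by an F-test of a second-degree polynomial, which also finds a rise that is later lost. Genes are said to have risen, fallen or changed only where the p-value, adjusted over the 17709 probe sets whose signal averaged 100 or more, was under 0.05. The third comparison was the size rule of the study, a ratio to the 0 hour array of at least 2 in either direction with a difference of at least 200, which is no test. Since each time has 1 array, the tests measure the spread around a curve over time and not between cultures, and all ratios share the 0 hour array. The medians of the arrays lay between 144.68 and 162.43, and between 42.5% and 44.3% of the probe sets were below 100 on each array.

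Of the 16 member probe sets, 12 from 8 genes averaged 100 or more and were tested. The other 4 were the only probe set of Bcl2, 1 of Bcl2l1 and 2 of Bcl2l11. Most members were higher at 2 and 6 hours than at 0 hours, and lower at 72 hours than at 6. All 12 tested probe sets had more signal at 2 hours than at 0 hours, compared with 48.4% of all tested probe sets, and 11 of the 12 were above the 0 hour signal at 6 hours, compared with 46.4%. For 7 of the 12, the 6 hour array gave the highest signal of the course, as it did for 14.2% of all tested probe sets. At 72 hours 11 of the 12 were below their 6 hour signal, against 48.1% of all tested probe sets, a comparison that does not use the 0 hour array. Still, 7 of the 12, with all 4 probe sets of the IAP genes among them, were above their 0 hour signal at 72 hours. Of all 17709 tested probe sets 8806 were. The median log2 change of the 12 was 0.34 after 2 hours, 0.58 after 6, 0.45 after 24 and 0.04 after 72. Over all tested probe sets it lay between -0.04 and 0.01 at every time. Scaling the arrays to the same median raised that median to 0.13 after 2 hours, 0.12 after 6 and 0.14 after 12. The counts of 12, 11 and 7 member probe sets stayed as they were, but this scaling could not lower them. The array median was highest at 0 hours (162.43), 146.38 at 2 hours and lowest at 6 hours (144.68). The shares of all tested probe sets were not recomputed under it. Several probe sets belong to 1 gene, so these counts are not over independent items.

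**Figure D1:**
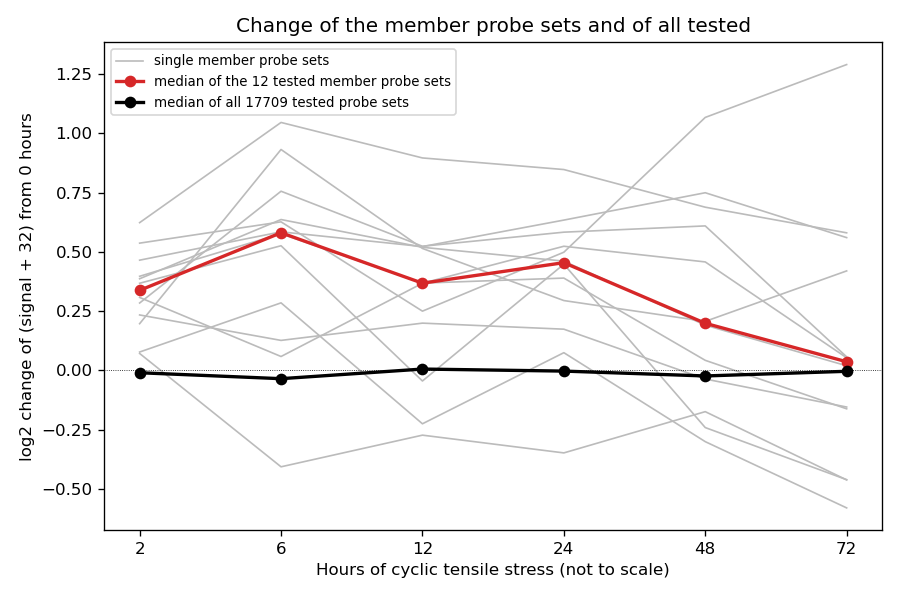
Change of log2(signal + 32) from 0 hours (vertical axis) by the hours of loading (evenly spaced on the horizontal axis), with a grey line for each of the 12 tested member probe sets, their median in red and the median of all 17709 tested probe sets in black. The red line reaches 0.58 at 6 hours and returns to 0.04 at 72 hours, while the black line lies close to 0 throughout.

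By the F-test along the order of the times, 7 of the 12 probe sets, from 5 genes (Bcl2l1, Mcl1, Bid, Birc2 and Birc3), changed, compared with 37.6% of all tested probe sets. In 6 of the 7 the fitted curve bent downward, as it did with a call in 17.3% of all, and in 1, Birc3, it bent upward, as in 20.3%. Without the 0 hour array 2 of the 12 changed (Bid in its brighter probe set and Birc3), without the 72 hour array 3, and without the 2 or the 48 hour array 4. The calls among all probe sets became fewer as well, with 4172, 3969, 4932 and 5174 in the same order, in place of 6660. By the linear test 1 of the 12 rose (Birc3), compared with 15% of all tested probe sets, and 1 fell (Bcl2l1 in its brighter probe set), compared with 14.1%. Both linear counts were thus no larger a share than among all probe sets. Without the 0 hour array 5 of the 12, from 3 genes, fell, both probe sets of Bcl2l1, both of Bid and the brighter of Mcl1. Over all probe sets 2550 fell in that run, in place of 2493. None fell once the 2, 48 or 72 hour array was left out, and none rose once that of 72 hours was. Over all probe sets 1672, 1609 and 1266 fell in these runs, and 1244 rose without the 72 hour array, in place of 2650.

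Marker genes of several cell types changed over the same hours. By the linear test 4 of 15 tested neuronal markers, 7 of 11 microglial and macrophage markers and all 10 markers of dividing cells fell. So did 1 of 9 for astrocytes, 1 of 6 for the oligodendrocyte lineage, 3 of 9 for fibroblasts and meningeal cells and 1 of 8 for skeletal muscle. Of all tested probe sets 14.1% fell. The F-test, which called 37.6% of all, called 13, 10 and 10 markers of the first 3 types. For the other 4 types it called 1, 2, 3 and 3. In bulk RNA, fewer cells of a type and less RNA per cell cannot be told apart. The summed signal of 19 neuronal markers was highest at 0 hours (23365), with 14371 after 2 hours, 11885 after 6 and 8314 after 72, with 18 of the 19 lower at 72 hours and Gad2, Chat and Isl1 below 100 on every array. That of 12 microglial and macrophage markers was highest at 6 hours (71827, against 56519 at 0 hours), the time of the highest signals of most members, and lowest at 72 hours (34114), with Cx3cr1 below 100 on every array. At 72 hours the summed signal was 0.936 of that at 0 hours for 10 astrocyte markers, 0.919 for 8 of the oligodendrocyte lineage, 0.974 for 9 of fibroblasts and meningeal cells, 0.259 for 10 of skeletal muscle and 1.05 for 6 of endothelium, of which 5 were below 100 on every array. At 6 hours it was 0.687 of that at 0 hours for astrocytes, the lowest of their course, 0.774 for the oligodendrocyte lineage, 0.764 for dividing cells, 0.560 for skeletal muscle, 0.931 for fibroblasts and meningeal cells and 1.09 for endothelium. No marker read exactly 0. The ratio of the 3′ to the 5′ control probe set of beta-actin, a sign of RNA integrity, was 1.82 before loading, 1.53 after 2 hours, 1.83 after 6 and 2.62 after 72. That of Gapdh was 1.09 before loading, 1.10 after 6 hours and 1.16 after 72. The part of cell makeup and of RNA integrity in the courses of the member genes was not tested.

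Promoter sequence was available for 7 of the 9 genes with a probe set. It is shown for Birc2, Mcl1 and Bcl2l11, which had their highest signal at 6 hours in a probe set that passed the signal filter, have 1 window each and hold at least 1 of the motifs searched. Bcl2l1, which has 4 windows with an ETS core in 1 of them, and Bid are not shown, nor is Bcl2, whose window holds an ETS core and a TATA box but whose signals were below the filter. The windows are the 250 bases before the annotated start in RefSeq (build GRCr8, given 5′ to 3′ on the strand of the gene), and capitals mark the motifs.
Birc2, chr8:13271541-13271790, minus strand: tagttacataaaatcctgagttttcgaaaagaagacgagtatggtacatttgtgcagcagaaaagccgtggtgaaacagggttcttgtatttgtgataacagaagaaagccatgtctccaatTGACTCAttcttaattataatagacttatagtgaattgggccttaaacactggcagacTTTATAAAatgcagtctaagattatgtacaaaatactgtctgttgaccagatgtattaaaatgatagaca
Mcl1, chr2:185907918-185908167, plus strand: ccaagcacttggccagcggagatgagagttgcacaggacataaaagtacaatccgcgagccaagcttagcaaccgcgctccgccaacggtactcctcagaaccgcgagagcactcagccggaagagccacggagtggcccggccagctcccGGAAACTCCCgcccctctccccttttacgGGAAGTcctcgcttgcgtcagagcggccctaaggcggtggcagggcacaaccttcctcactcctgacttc
Bcl2l11, chr3:135819792-135820041, plus strand: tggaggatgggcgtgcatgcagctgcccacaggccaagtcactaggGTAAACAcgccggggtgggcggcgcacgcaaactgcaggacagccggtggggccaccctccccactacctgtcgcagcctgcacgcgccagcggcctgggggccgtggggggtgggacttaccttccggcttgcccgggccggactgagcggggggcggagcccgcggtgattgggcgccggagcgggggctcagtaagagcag
In the window of Birc2 the capitals mark an AP-1 motif (TGANTCA), whose end lies 121 bases before the start, and a pair of overlapping TATA box matches (TATAAA), 1 on each strand. AP-1, the dimer of Fos and Jun proteins, recognises TGANTCA, which was found in 6.34% of 33469 promoter windows of the same length, while TATAAA was found in 12.9%. In the window of Mcl1 they mark an NF-kB motif, present in 6.33% of windows, and an ETS core (GGAAGT), present in 19.2%. In the window of Bcl2l11 they mark a FOXO motif (GTAAACA), 197 bases before the start and present in 3.21% of windows. FOXO factors are known activators of Bim. Both strands were searched for 8 motifs, the others being CRE (TGACGTCA), E-box (CACGTG) and the CArG box of SRF. The window of Bid held none of the 8. A match describes letters only, and occupancy was not measured.

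Among the prosurvival genes, Bcl2l1 fell in its brighter probe set and Mcl1 was higher during the middle of the course. The signal of Bcl2l1 in its brighter probe set was 1018 before loading, 1076 after 2 hours, 1247 after 6, 866 after 12, 1074 after 24, 820 after 48 and 670 after 72. The 48 and 72 hour arrays were the lowest of the course, at 0.806 and 0.658 of the 0 hour signal. The linear log2 change of -0.65 (standard error 0.18) passed with an adjusted p of 0.0220 from limma, and the F-test along the order of times gave an adjusted p of 0.0274 from limma. The linear call was lost without the 72 hour array (-0.53, adjusted p = 0.254 from limma), and also, by small margins, without the 2 or the 48 hour array (adjusted p = 0.0519 and 0.0559 from limma) and with time as log2(hours + 2) or as an order (0.0941 and 0.0717). The F-test was not passed without the array of 0, 2, 6, 48 or 72 hours (adjusted p between 0.0568 and 0.306 from limma). The dimmer probe set of Bcl2l1 had signals of 230 before loading, 306 after 2 hours, 345 after 6, 222 after 12, 325 after 24, 189 after 48 and 158 after 72. It showed the same order of high and low arrays at the ends, highest at 6 hours and lowest at 72 hours, with a linear log2 change of -0.73 (standard error 0.26) that did not pass (adjusted p = 0.0620 from limma). The third probe set of Bcl2l1, between 6.29 and 41.3 on all arrays, was too dim to be read.

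Mcl1 encodes a short-lived prosurvival protein. Its brighter probe set had signals of 3571 before loading, 4204 after 2 hours, 3901 after 6, 4104 after 12, 4032 after 24, 3481 after 48 and 3204 after 72, so that the 4 arrays from 2 to 24 hours lay above that of 0 hours and the last pair below it. The dimmer probe set had signals of 760 before loading, 933 after 2 hours, 1306 after 6, 1107 after 12, 1155 after 24, 1177 after 48 and 792 after 72. Its 6 hour signal was 1.72 times and its 72 hour signal 1.04 times that of 0 hours. Both probe sets changed along the order of times, the dimmer with an adjusted p of 0.0134 and the brighter with 0.0489 from limma, and neither passed the linear test (adjusted p = 0.778 and 0.106 from limma). They differed at 48 hours, where the dimmer was at 1.55 times and the brighter at 0.975 times its 0 hour signal. The call of the brighter was lost after quantile normalization (adjusted p = 0.0905 from limma) and without a filter (0.0736), as well as without any array except that of 6 hours (between 0.0757 and 0.262). That of the dimmer was lost without the 0 hour array (0.0877).

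Bcl2, the founding member of the family, was dim in these cells. Its probe set read 57.5 before loading, 82.8 after 2 hours, 88.4 after 6, 75.3 after 12, 75.1 after 24, 40.4 after 48 and 48.0 after 72. These signals were below 100 on every array, and Bcl2 was not tested.

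Bak1 was the 1 effector with a probe set of its own, and it moved apart from most members. Its signal was 351 before loading, 370 after 2 hours, 257 after 6, 285 after 12, 269 after 24, 307 after 48 and 246 after 72. The 5 arrays from 6 hours on were all below the first pair, with 0.732 of the 0 hour signal at 6 hours and 0.701 at 72 hours. Neither the linear test (log2 change -0.30, standard error 0.21, adjusted p = 0.308 from limma) nor the F-test (adjusted p = 0.255 from limma) was passed.

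**Figure D2:**
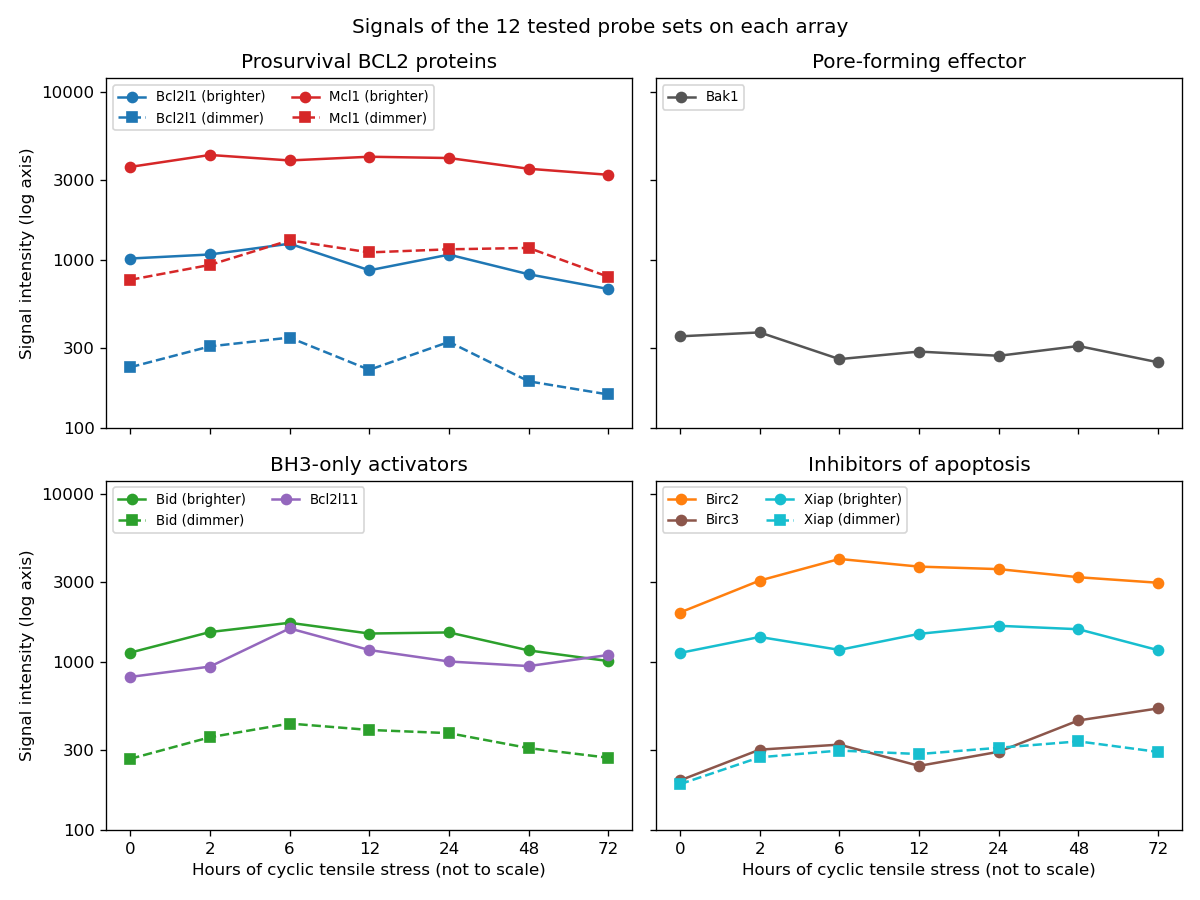
Signal intensity (vertical axis, log scale) of the 12 tested member probe sets on the array of each time (hours of loading, evenly spaced on the horizontal axis), in a panel for each role, with a solid line for the brighter and a dashed line for the dimmer probe set of a gene. The 7 probe sets of Bcl2l1, Mcl1 (dimmer), Bid, Bcl2l11 and Birc2 peak at 6 hours, Bak1 is low from 6 hours on and Birc3 is highest at 72 hours.

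Both BH3-only genes were highest at 6 hours in their tested probe sets. Bid, whose protein is cleaved by caspase-8 and then carries the death receptor signal to the mitochondria, had signals in its brighter probe set of 1136 before loading, 1506 after 2 hours, 1710 after 6, 1476 after 12, 1498 after 24, 1171 after 48 and 1012 after 72. The dimmer probe set read 265 before loading, 357 after 2 hours, 430 after 6, 394 after 12, 377 after 24, 307 after 48 and 269 after 72. In both, the 4 arrays from 2 to 24 hours were above those of 0, 48 and 72 hours, and the ratios at 6 hours were 1.51 and 1.62. Both changed along the order of times (adjusted p = 0.00729 and 0.0276 from limma) and neither passed the linear test (adjusted p = 0.0964 and 0.337 from limma). The call of the brighter probe set was kept without any single array, with an adjusted p of at most 0.0377 from limma, while that of the dimmer was lost without the array of 0, 2, 6, 12 or 72 hours (adjusted p between 0.0526 and 0.0873).

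Bcl2l11, which encodes Bim, had signals in its bright probe set of 815 before loading, 938 after 2 hours, 1583 after 6, 1177 after 12, 1006 after 24, 945 after 48 and 1101 after 72. The 6 hour array stood above all others, at 1.94 times the 0 hour signal, just under the ratio of the size rule, and the neighbouring 12 hour array was at 1.45 times. No test was passed (adjusted p = 0.980 for the linear change and 0.288 for the F-test, both from limma). A dim probe set of Bcl2l11 read 45.0 at 0 hours and 139 at 6 hours, and was below 100 on every array but that of 6 hours. The remaining one lay between 12.8 and 61.1 and was highest at 12 hours. Both were below the signal filter and gave no readable course.

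Among the IAP genes, Birc2 was highest at 6 hours and Birc3 at 72 hours. Both were above their 0 hour signals at every later time. Birc2 had a signal of 1968 before loading, 3049 after 2 hours, 4098 after 6, 3691 after 12, 3567 after 24, 3192 after 48 and 2959 after 72. Every later array was above that of 0 hours, by 1.503 to 2.08 times, and after 6 hours the signal was lower at each following time. At 6 hours Birc2 was the 1 member above the size rule, which 0.351% of all probe sets passed upward at that time. It changed along the order of times with the lowest adjusted p of the members, 0.00449 from limma, and did not pass the linear test (log2 change 0.06, standard error 0.30, adjusted p = 0.898 from limma). Without the 0 hour array the F-test was not passed (adjusted p = 0.139 from limma). The size rule at 6 hours was passed by no member after quantile normalization or against the mean of the 0 and 2 hour arrays.

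Birc3, a target gene of NF-kB, had a signal of 198 before loading, 301 after 2 hours, 322 after 6, 241 after 12, 292 after 24, 449 after 48 and 529 after 72. The last pair of arrays was above all earlier ones, at 2.27 and 2.68 times the 0 hour signal. Birc3 was the 1 member above the size rule at 48 and at 72 hours, which 1.98% and 2.6% of all probe sets passed upward, and no member was below it at 72 hours, which 3.54% were. The linear log2 change was 1.04 (standard error 0.23, adjusted p = 0.00833 from limma), and the F-test gave an adjusted p of 0.0216 from limma. Without the 72 hour array the linear log2 change was 1.10 and was not called (adjusted p = 0.0939 from limma), and without any other array the linear test was passed (adjusted p at most 0.0330). The F-test was not passed without the 48 or the 72 hour array (adjusted p = 0.0624 and 0.187 from limma). Birc2 and Birc3 are direct neighbours on rat chromosome 8. After 2 hours Birc2 and Birc3 were at 1.55 and 1.52 times their 0 hour signals, and after 6 at 2.08 and 1.63 times. At 12 hours they were at 1.88 and 1.22 times, and at 24 hours at 1.81 and 1.48 times. They were at 1.62 and 2.27 times at 48 hours and at 1.503 and 2.68 times at 72 hours. The difference between the genes was not tested.

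Xiap, the IAP that binds caspases directly, had signals in its brighter probe set of 1132 before loading, 1408 after 2 hours, 1180 after 6, 1469 after 12, 1641 after 24, 1566 after 48 and 1175 after 72. The dimmer probe set read 188 before loading, 271 after 2 hours, 297 after 6, 283 after 12, 309 after 24, 337 after 48 and 292 after 72. Every later array was above that of 0 hours in both, by at most 1.45 times in the brighter and 1.80 times in the dimmer, but the probe sets differed at 6 hours (1.04 and 1.58 times) and at 72 hours (1.04 and 1.56 times). Neither passed the linear test (adjusted p = 0.912 and 0.318 from limma) or the F-test (0.166 and 0.0538). The dimmer passed the F-test after quantile normalization (0.0343) or scaling to the same median (0.0389), and the brighter without the 6 hour array (0.0428).

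**Figure D3:**
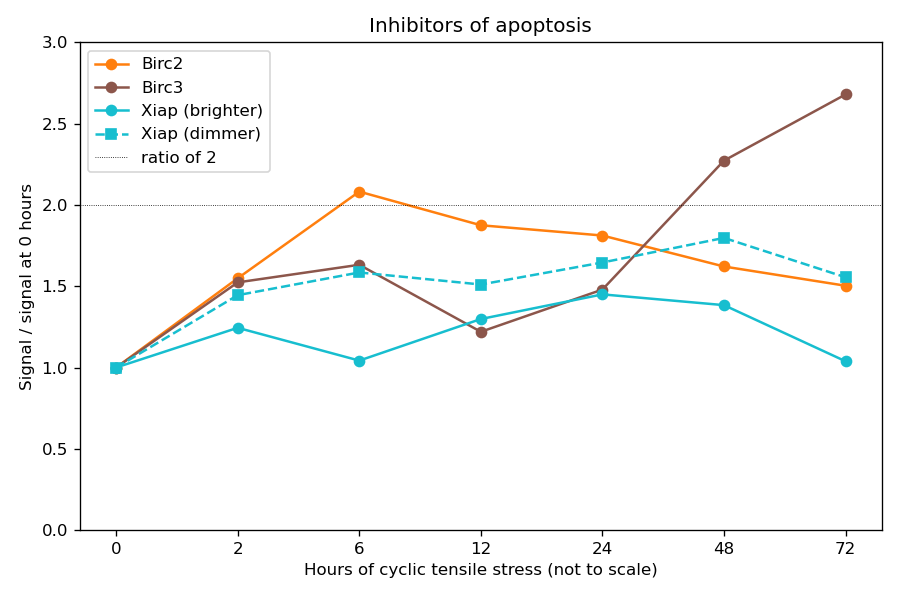
Signal divided by the signal at 0 hours (vertical axis) for the IAP genes Birc2, Birc3 and Xiap by the hours of loading (evenly spaced on the horizontal axis), with a dotted line at a ratio of 2. Birc2 peaks at 2.08 at 6 hours and declines to 1.503, whereas Birc3 rises to 2.27 at 48 hours and 2.68 at 72 hours.

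**Figure D4:**
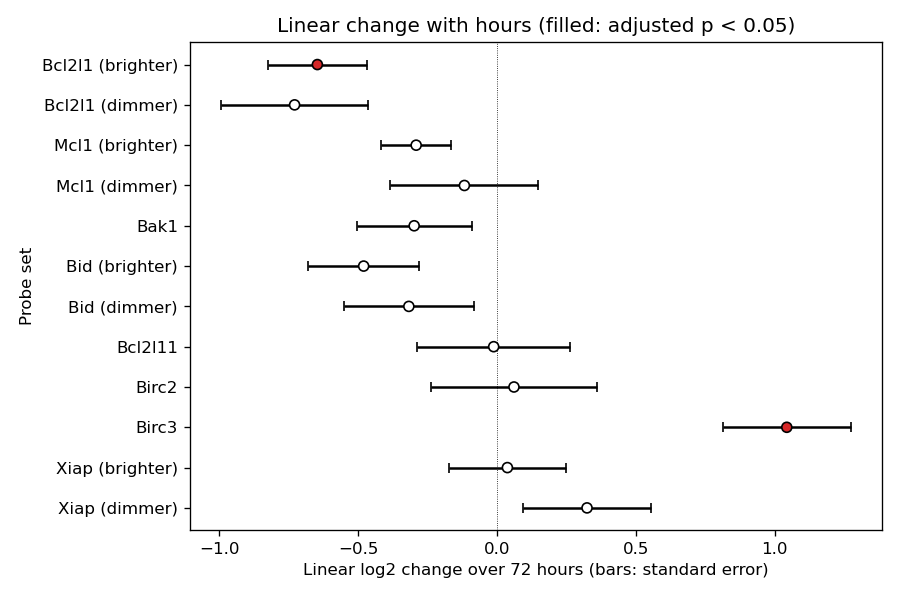
Linear log2 change over 72 hours (horizontal axis) with its standard error (bars) for each of the 12 tested member probe sets (vertical axis), with filled points where the limma test was passed. Birc3 at 1.04 and the brighter probe set of Bcl2l1 at -0.65 are filled, and the other 10 are not.

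Other genes of these pathways were read from 8 lists with 66 genes, of which 50 had a probe set of their own and 45 were tested in their brightest probe set. Of the 45, 8 rose, 6 fell and 31 did not pass the linear test, beside 15% and 14.1% of all tested probe sets. Without the 2, 48 or 72 hour array 5, 4 and 3 of them rose, and without the 72 hour array 3 fell. The median log2 change of the 45 was 0.18 at 6 hours and 0.17 at 72 hours.

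Beyond the members, 4 genes of the BCL2 family passed the linear test. Of 3 tested prosurvival genes, Bcl2l2 (Bcl-w) rose to 1.40 times and Bcl2a1 (A1), which had been at 1.49 times at 6 hours, fell to 0.708 of its 0 hour signal at 72 hours. Of 6 tested effector and BH3-only genes none rose and 2 fell. Bok, an effector related to Bax and Bak, fell from a signal of 610 to 157, and Bad, a BH3-only protein controlled by growth factor signalling, from 1393 to 930. The 1 tested IAP gene of the list, Birc5 (survivin), fell from 455 to 95.3 (log2 change of (signal + 32) at 72 hours -1.94, adjusted p of the linear test 6.7e-04 from limma). Survivin is made by dividing cells. The summed signal of 10 markers of dividing cells was 15509 at 0 hours and 6983 at 72 hours, of which Pcna alone gave 6894 and 5383. Any part of dividing cells in the course of Birc5 was not tested. None of the 3 tested antagonists of IAP proteins (Diablo, Htra2 and Septin4) passed the linear test. Of 3 tested genes of the apoptosome and its caspases, Casp9, the initiator caspase, fell to 0.643 of its 0 hour signal.

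Partners of the cIAP proteins and NF-kB genes made up 10 and 7 of the 45 tested genes. Of all tested probe sets 15% rose and 14.1% fell. Of 10 tested partners at the TNF receptor 3 rose and none fell. Tnfrsf12a, the receptor of TWEAK, went from 1071 to 2543, and Traf2, the adaptor that recruits cIAP proteins, from 104 to 294. Cflar, which encodes the caspase-8 inhibitor c-FLIP, went from 65.5 to 165. Cflar averaged 108 and was below 100 at 0, 2 and 6 hours, so it passed the filter only through its later arrays. Of 7 tested NF-kB subunits and feedback genes 2 rose and none fell. Nfkbia, the inhibitor of NF-kB that is itself induced by it, was at 2.56 times its 0 hour signal at 72 hours, and Nfkb1 was at 1.46 times. Of 12 tested genes of the turnover and transcription of BCL2 proteins, Bag3, a co-chaperone, rose to 1.93 times and Foxo3, a FOXO factor, to 1.33 times, while Vdac1, the channel of the outer mitochondrial membrane, fell to 0.681.

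Of the named pathway genes, Birc5, Bok, Nfkbia and Vdac1 passed the linear test under every alternative run, and the others lost the call under at least 1. Without the 72 hour array the call was lost for Tnfrsf12a (adjusted p = 0.140 from limma), Traf2 (0.124), Bag3 (0.0684), Foxo3 (0.0701), Bcl2l2 (0.0518), Casp9 (0.0781), Bcl2a1 (0.120) and Bad (0.434), where the linear log2 change of Bad was -0.24 in place of -0.45. With time as log2(hours + 2) or as an order, Bad (0.0803 and 0.0626) and Bcl2a1 (0.0781 and 0.0564) were not called. Traf2 and Cflar were not called without a filter (0.0521 and 0.0583), and Nfkb1 was not called with the arrays scaled to the same median (0.0743). Cflar fell below the filter, and so was not tested, without the 72 hour array and with a minimum mean signal of 200. The call of Nfkb1 was also lost without the 0, 2, 12 or 48 hour array (between 0.0529 and 0.108), that of Cflar without the 0, 2, 24 or 48 hour array (between 0.0503 and 0.0844), that of Bcl2l2 without the 2 or 48 hour array (0.0504 and 0.0687) and that of Traf2 without the 48 hour array (0.0917).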

How the data were processed

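Total RNA of cultured spinal cord cells was measured on 7 GeneChip Rat Genome 230 2.0 arrays, 1 for each time from 0 to 72 hours. The authors processed the arrays in GCOS and deposited a linear signal intensity per probe set from MAS5.0, background-subtracted and scaled globally to a trimmed mean of 500, without detection calls. Near the floor such intensities are unreliable. Precision is limited by there being 7 arrays.

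Of 31099 probe sets, 57 controls were left out. Names came from the platform annotation of 2016 (20826 probe sets with 1 symbol, 436 with several, 9780 with none), and 20758 gene identifiers matched the RefSeq annotation of GRCr8 with no symbol changed. Members, gene lists and tests were chosen with earlier results of these data known. Other genes were represented by their brightest probe set and named where they passed the linear test or the size rule at 72 hours, up to 4 a list.

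limma 3.58.1 (R 4.3.3, lmFit, eBayes with an intensity trend) was run on log2(signal + 32) of the 17709 probe sets averaging 100 or more, with 5 (linear) or 4 (polynomial) residual degrees of freedom, adjusting p-values by Benjamini-Hochberg, and was tested on simulated data. Other values were computed in Python 3.11.15. Alternatives were other normalizations, pseudocounts, filters, forms of time, size rules and baselines, robust estimation, and each array left out in turn.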

Additional observations from a re-analysis of the deposited data

How the results depend on the processing

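No paired analysis was possible because each time has 1 array. Over 360 combinations of a member probe set, a test and an alternative setting, 322 kept their side of the threshold, 28 lost a call, 10 gained one and no called direction was reversed. Only the 1 rise and 1 fall of the linear test and the 7 calls of the F-test could be lost. Most combinations had no call to lose and no direction to compare, so the 322 do not measure how stable the calls were. The number of member probe sets that fell by the linear test was 0 in place of 1 with time as log2(hours + 2) or as the order of the times.

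With each array left out in turn, between 1244 and 2811 of all probe sets rose and between 1266 and 2550 fell by the linear test, with 0 to 1 and 0 to 5 of the members. The F-test called 3969 to 6396 of all probe sets, 1801 to 2958 of them curved downward, and 2 to 6 of the members, 1 to 5 of them curved downward. Of the pathway genes 3 to 8 rose and 3 to 8 fell.

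By the size rule at 72 hours 807 probe sets were higher and 1100 lower. With a ratio of 1.5 these were 1747 and 1937, with 2 members higher and 1 lower (Bcl2l1) in place of 1 and 0, and with a difference of 100 they were 1266 and 1659. At 6 hours 109 were higher and 379 lower. In alternatives added after the data were seen, these were 216 and 196 with the same median on each array (2 members higher, Birc2 and Bcl2l11), 552 and 1003 with a ratio of 1.5 (4 members higher: Birc2, Bcl2l11, Bid and Mcl1), 181 and 694 with a difference of 100, and 41 and 85 against the mean of 0 and 2 hours (0 members). After quantile normalization 0 members passed at 6 hours. The cause of these shifts was not tested. Signals below 100, as for Bcl2, gave no usable course.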
